A study of Mus musculus with 20 samples.

Results

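The genes followed here are 10 immediate early and early activity-induced genes of neurons, Fos, Fosb, Junb, Arc, Egr1, Egr2, Nr4a1, Npas4, Dusp1 and Bdnf. They were chosen by name from the 23413 genes in each count table. All 10 are present in every table, and all 10 were among the 15660 genes that passed the expression filter. The 20 mice were APOE4 knock-in animals (allele tm1.1(APOE*4)Adiuj of Apoe), in which human APOE4 stands in place of mouse Apoe, so every group carried the allele and no mouse without it was measured. They were 22 months old and had eaten a control diet (CD) or a ketogenic diet (KD) for 12 months, from 10 months of age. The CD was eaten by 5 females and 5 males and the KD by 4 females and 6 males, and each mouse gave 1 cortex library. By the methods of the study, the mice were housed singly and fed equal calories. They were tested for behavior and later bled out under isoflurane after an overnight fast. The interval between the last test and tissue collection is not given in the sources used here.

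The libraries carry 2 runs of library numbers, called series 1 and series 2 here, with 10 libraries each and with all 4 groups in both. Of the females, 2 on each diet were in series 1, and 3 on the CD and 2 on the KD in series 2. Of the males, 3 on each diet were in series 1, and 2 on the CD and 3 on the KD in series 2. Totals ran from 21015275 to 29109990 counts in series 1 and from 12207161 to 17697342 in series 2. Levels are given as CPM, the counts on a gene scaled to the total of its library. Mouse Apoe was between 1.33 and 3.34 CPM throughout. Xist and the Y-linked gene Ddx3y matched the sex labels, except that CD female E228 also had 14.0 CPM of Ddx3y. Libraries also differed in genes of neighboring brain regions. The summed level of 12 striatal markers was 1071 CPM in CD female E249, 2399, 2231 and 2899 CPM in KD females E61, E68 and E207, and 3467 CPM in KD male E59, against 237 to 602 CPM in the other 15 libraries. Summed markers of cortical excitatory neurons were 628 to 792 CPM in E249, E61, E68 and E207 and at least 1001 CPM in the other 16. Choroid plexus markers reached 2410 CPM in E59 and at most 68.2 CPM elsewhere. In bulk tissue, fewer cells of a type and less RNA per cell cannot be told apart.

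Immediate early genes are transcribed without new protein synthesis when synaptic input raises calcium and activates kinases such as ERK and CaMKs. Those kinases phosphorylate CREB, which sits on cAMP response elements (CREs), and the partners of SRF, which sits on CArG boxes. The first products are largely transcription factors. Fos, Fosb and Junb encode subunits of AP-1, Egr1 and Egr2 encode zinc-finger factors, Nr4a1 encodes an orphan nuclear receptor, and Npas4 encodes a bHLH-PAS factor that is restricted to neurons and responds to calcium. Arc acts at the synapse, where it promotes removal of AMPA receptors. Bdnf encodes brain-derived neurotrophic factor, the ligand of TrkB, and Dusp1 encodes a phosphatase that switches MAP kinases off. The transcripts of most of these genes decay quickly, so their level follows recent activity. These genes bear on the study because it examined CREB and ERK phosphorylation and synaptic plasticity on the diet. The study measured those in hippocampus, as phosphoprotein and in slices, whereas the values here are RNA levels in cortex. It also reported, from pathway analysis of its cortex RNA sequencing, that the KD enhanced CREB signaling, especially in females.

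The sequences before 5 of the start sites are shown because each of these windows holds an element on which CREB can sit. Those of Fosb and Junb, with 1 core each, and of Npas4, with 2 cores in bases annotated as exonic, are not shown. RefSeq start sites of GRCm38.p6 were matched for 8 of the 10 genes. Arc and Egr1 had no entry. In the 250 bases before a start site, both strands were searched for the CRE, TGACGTCA, for its core TGACG, which every CRE contains, and for the CArG box of SRF. All 8 genes had a core in at least 1 window, and Dusp1 also had a complete CRE. The core occurs in 17.8% of the 32851 windows of all genes (19.8% of genes have at least 1), the complete CRE in 1.55% and the CArG box in 1.47%. Capitals mark these elements. The Fos window lies on the plus strand at chr12:85473640-85473889, with cores beginning 129 and 66 bases before the start. Of 5 Egr2 windows, 3 have a core, and the one shown lies on the plus strand at chr10:67537619-67537868. It has 2 cores, 111 and 55 bases before the start, with a CArG box between them at 72 bases. The Nr4a1 window, on the plus strand at chr15:101266596-101266845, holds 4 cores. The Dusp1 stretch, on the minus strand at chr17:26508520-26508722, has the complete CRE 143 bases before the start. Of 7 Bdnf windows, only the one at chr2:109692186-109692435 on the plus strand has a core, 35 bases before the start.
Fos: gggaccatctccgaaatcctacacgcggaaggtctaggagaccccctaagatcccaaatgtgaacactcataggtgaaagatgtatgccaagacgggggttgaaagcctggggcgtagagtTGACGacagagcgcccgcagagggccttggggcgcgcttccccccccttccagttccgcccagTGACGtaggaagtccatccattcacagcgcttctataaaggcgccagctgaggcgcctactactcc
Egr2: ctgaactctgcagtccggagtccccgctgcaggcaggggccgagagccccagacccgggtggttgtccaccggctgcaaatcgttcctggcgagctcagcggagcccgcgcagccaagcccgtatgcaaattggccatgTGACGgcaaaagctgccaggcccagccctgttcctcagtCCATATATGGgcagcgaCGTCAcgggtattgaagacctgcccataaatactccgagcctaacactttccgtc
Nr4a1: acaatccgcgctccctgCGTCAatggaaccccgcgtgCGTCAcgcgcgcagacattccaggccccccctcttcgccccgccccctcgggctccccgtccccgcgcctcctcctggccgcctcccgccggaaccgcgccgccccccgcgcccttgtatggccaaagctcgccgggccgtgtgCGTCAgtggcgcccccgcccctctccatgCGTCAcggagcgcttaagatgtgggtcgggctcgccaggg
Dusp1: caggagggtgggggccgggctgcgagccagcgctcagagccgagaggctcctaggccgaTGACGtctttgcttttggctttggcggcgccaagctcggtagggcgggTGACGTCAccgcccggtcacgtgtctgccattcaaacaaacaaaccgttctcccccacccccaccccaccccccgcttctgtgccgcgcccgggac
Bdnf: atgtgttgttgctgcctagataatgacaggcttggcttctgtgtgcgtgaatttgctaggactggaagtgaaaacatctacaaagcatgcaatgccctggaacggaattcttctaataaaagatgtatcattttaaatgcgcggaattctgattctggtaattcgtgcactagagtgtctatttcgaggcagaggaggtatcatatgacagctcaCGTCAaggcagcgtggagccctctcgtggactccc
A match of letters does not show that a factor is bound, and a relation of these elements to the levels across mice was not tested.

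In the GENCODE annotation of GRCm38, Fos lies at chr12:85473890-85477273 on the plus strand, Arc at chr15:74669083-74672570 on the minus strand and Bdnf at chr2:109674700-109727007 on the plus strand. Junb shares bases with Prdx2, Dusp1 with Ergic1 and Gm8225, and Bdnf with the antisense gene Gm45346, each on the other strand. Dusp1 also spans 2 short annotated genes on its own strand, AC122252.4 and AC122252.1. Which strand was counted is not stated, so the counts of those 3 genes may include reads of their neighbors. Per kilobase of exon, the median level over the 20 libraries was highest for Egr1, at 19.1 CPM per kb, and Arc, at 15.9 CPM per kb. Bdnf followed at 9.64 and Fos at 7.51 CPM per kb, and Fosb was lowest at 0.864 CPM per kb.

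Among the AP-1 genes, Fos varied 7.29-fold between its lowest and highest library. CD females had 16.9 and 20.2 CPM in series 1 and 6.78, 5.65 and 8.10 CPM in series 2. KD females had 24.4 and 11.9 CPM in series 1 and 21.5 and 10.3 CPM in series 2. The 3 CD females of series 2 lay below all KD females, whereas both CD females of series 1 lay between the KD values. CD males had 26.7, 7.04 and 19.2 CPM in series 1 and 22.7 and 18.5 CPM in series 2, and KD males ran from 6.74 to 41.2 CPM with a median of 13.6 CPM. Male E213 on the KD held the maximum, and E59 on the same diet came near the bottom. Mean levels were 11.5 ± 6.58 CPM in CD females (SD, n = 5) and 17.0 ± 6.996 CPM in KD females (n = 4). In males they were 18.8 ± 7.34 CPM on the CD (n = 5) and 17.3 ± 13.4 CPM on the KD (n = 6).

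Fosb, whose product pairs with Jun proteins as Fos does, ran from 2.54 CPM in CD female E249 to 11.6 CPM in KD male E53. Its group means were 4.15 ± 1.63 CPM in CD females, 4.56 ± 2.20 CPM in KD females, 6.45 ± 2.70 CPM in CD males and 7.05 ± 3.60 CPM in KD males. Junb ran from 1.12 CPM in KD female E68 to 13.3 CPM in KD male E64. The Junb maximum came in a mouse whose Egr1, 42.2 CPM, was the lowest of the 11 males. Junb means were 2.40 ± 0.930 CPM in CD females, 3.86 ± 1.84 CPM in KD females, 3.69 ± 2.34 CPM in CD males and 5.91 ± 5.08 CPM in KD males, so the SD in KD males was nearly as large as the mean.

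Egr2 was the most variable of the 10 genes after group and series means were removed. CD females had 5.19 and 7.94 CPM in series 1 but 1.64, 1.48 and 1.75 CPM in series 2. KD females had 6.13 and 2.63 CPM in series 1 and 9.86 and 3.47 CPM in series 2. The series 2 CD females were the lowest 3 of the 20 libraries. CD males had 11.8, 1.75 and 4.56 CPM in series 1 and 12.5 and 5.52 CPM in series 2, and KD males ran from 2.37 to 25.2 CPM with a median of 6.18 CPM. Egr1, which is also the most abundant of the set per kilobase, moved less, from 33.4 CPM in CD female E249 to 175 CPM in KD male E213. Egr1 means were 76.3 ± 29.7 CPM in CD females, 66.9 ± 19.3 CPM in KD females, 116 ± 41.3 CPM in CD males and 93.0 ± 43.9 CPM in KD males.

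Nr4a1 ran from 6.31 CPM in E249 to 49.9 CPM in E213. Its means were 16.2 ± 7.01 CPM in CD females, 17.2 ± 8.25 CPM in KD females, 20.8 ± 8.56 CPM in CD males and 20.5 ± 14.9 CPM in KD males. Npas4 ran from 2.58 CPM in CD male E66 to 13.4 CPM in E213. E66 had the lowest Npas4 of all while its Egr1 stood at 115 CPM, above the median. Npas4 means lay close together, at 5.72 ± 1.34 CPM in CD females, 6.72 ± 2.82 CPM in KD females, 5.82 ± 1.96 CPM in CD males and 7.13 ± 3.64 CPM in KD males.

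Arc had the widest range, 19.1-fold, from 11.6 CPM in E249 to 223 CPM in E213. CD females had 75.7 and 79.5 CPM in series 1 and 46.4, 11.6 and 23.5 CPM in series 2. KD females had 45.3 and 23.2 CPM in series 1 and 57.8 and 50.8 CPM in series 2. Both KD females of series 1 were below the CD pair of that series, and both KD females of series 2 were above the CD trio. CD males had 98.3, 40.8 and 45.4 CPM in series 1 and 67.2 and 85.7 CPM in series 2, and KD males ran from 20.03 to 223 CPM with a median of 49.6 CPM. Dusp1 ran from 4.83 CPM in E249 to 23.9 CPM in E213, and only E213 and CD male E264, at 22.7 CPM, exceeded 12.0 CPM. Means of Dusp1 were 8.45 ± 2.17 CPM in CD females, 9.42 ± 2.82 CPM in KD females, 11.9 ± 6.47 CPM in CD males and 11.6 ± 6.11 CPM in KD males.

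Bdnf had the narrowest range, 3.46-fold. CD females had 72.8 and 64.7 CPM in series 1 and 46.5, 36.5 and 65.1 CPM in series 2. KD females had 41.9 and 34.3 CPM in series 1 and 28.6 and 46.1 CPM in series 2. KD females were thus low in both series, and E249, at 36.5 CPM, was the only CD female within their range. CD males had 72.2, 48.8 and 71.8 CPM in series 1 and 76.5 and 65.6 CPM in series 2, and KD males ran from 34.5 to 99.2 CPM with a median of 59.9 CPM. Of the 30 gaps between neighboring group means over the 10 genes, only that between CD females (57.1 ± 15.02 CPM) and KD females (37.7 ± 7.80 CPM) in Bdnf exceeded the larger of its SDs. A male group held the highest mean for 10 of 10 genes, and the lowest mean was that of CD females for 7 and of KD females for 3.

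**Figure D1:**
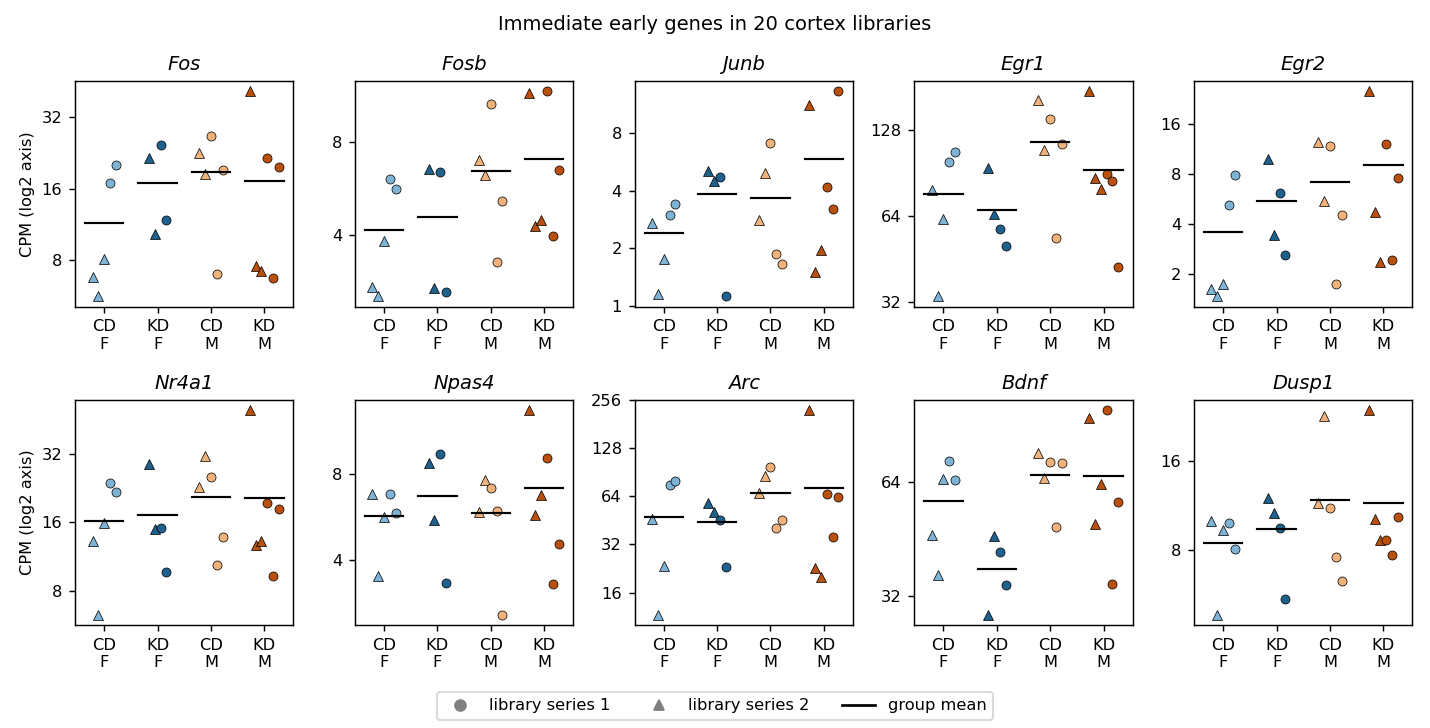
CPM of the 10 genes on a log2 axis in CD and KD females (F) and males (M), with 1 symbol per mouse, circles for library series 1, triangles for series 2 and bars for group means. Groups overlap in every panel, and the top triangle in KD males is E213 in every panel, with a circle above it for Fosb, Junb and Bdnf.

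The diet did not separate the groups for any of the 10 genes. In females 0 of 10 genes were called as differentially expressed genes (DEGs, FDR at most 0.1 and at least a 1.5-fold change), when 0.0447% of all genes tested were called. Those 7 genes became 1046 without CD female E249, of which Bdnf was 1, and 906 without KD female E227, which included 0 of the 10. On the KD, 6 were higher and 4 lower, with log2 fold changes from -0.66 for Bdnf to 0.60 for Junb and a median of 0.074 (all genes 0.013). Fos had a log2 fold change of 0.51 ± 0.512 (SE; 95% interval -0.56 to 1.58; adjusted p = 0.805, edgeR quasi-likelihood test). Egr2 had 0.51 ± 0.715 (interval -0.99 to 2.005) and Arc -0.17 ± 0.613 (interval -1.45 to 1.11), so changes in either direction lie within the intervals. Bdnf was the closest to a call, at -0.66 ± 0.265 (interval -1.22 to -0.11), with an unadjusted p of 0.0218 and an adjusted p of 0.34. It was the only 1 of the 10 below an unadjusted p of 0.05 in that direction, where 5.5% of all genes were. A two-sided exact permutation test gave p = 0.0635 for Bdnf, where 9 mice allow no p below 0.0159, and at least 0.222 for the other 9 genes.

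In males 0 of 10 genes were called, against 0.0% of genes tested, and the adjusted p was 1 for each. Fitted values were higher for 5 and lower for 5, from -0.37 for Egr1 to 0.67 for Junb, with a median of 0.013. Bdnf had a log2 fold change of -0.03 ± 0.235 (95% interval -0.52 to 0.46). Exact permutation tests in males gave p of at least 0.372, with 0.00433 as the smallest possible. The diet effect in females minus that in males was also called for 0 of 10 genes (0.0% of all genes), and was largest for Bdnf, -0.63 ± 0.353, and Fos, 0.63 ± 0.686, each with an adjusted p of 1. Over both sexes 0 of 10 were called, against 0.268% of genes, and Junb had the largest difference at 0.63 ± 0.404. For none of the 10 did KD and CD libraries fall into ranges that did not overlap, in females (2.1% of all genes) or in males (0.217%).

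Within the library series the females divided. In series 1 alone, all 10 genes were lower in the 2 KD females than in the 2 CD females by the fitted value, from -0.05 for Npas4 to -1.23 for Arc, with a median of -0.53. In series 2 alone 9 of 10 were higher in the 2 KD than in the 3 CD females, up to 1.96 for Egr2, and only Bdnf was lower, at -0.48. The KD values of Arc, Egr1, Nr4a1 and Bdnf lay wholly below the CD values in series 1, which 21.1% of all genes did. Those of Fos, Junb, Arc, Egr2 and Dusp1 lay wholly above in series 2, as for 10.1% of all genes. Arc is in both lists, with opposite directions. The difference between the series was tested in a fit with a mean for each group in each series, and 0 of 10 genes were called (0.0% of all genes, and 1051 genes but 0 of these without CD female E228). Its log2 values were above 0 for 10 of 10 genes (median 1.28, all genes -0.013), reaching 2.59 ± 1.35 for Egr2, 2.15 ± 1.14 for Arc and 1.72 ± 0.812 for Nr4a1. The genes vary together across mice, with a median pairwise r of 0.71 after group and series means are removed. Their shared sign is therefore not 10 separate results. Nr4a1 alone was under an unadjusted p of 0.05, with 0.0497 and an adjusted p of 0.53 in edgeR, as 3.37% of genes were in that direction.

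The same libraries differ in tissue markers. Both KD females of series 1 and E207 of series 2 are 3 of the 5 libraries with over 1000 CPM of striatal markers, and CD female E249 of series 2, the lowest of its group for 10 of 10 genes, has 1071 CPM and the lowest total of all, 12207161 counts. With the summed striatal markers as a covariate in the fit of both series, 10 of 10 genes were above 0 on the KD in females (0.02 to 1.68, smallest adjusted p 0.838, edgeR). With the cortical neuron markers 9 of 10 were (-0.45 to 1.28, smallest adjusted p 0.379, edgeR). The share of all genes above 0 in these fits is not given here. As the 10 genes vary together, their shared sign is not 10 separate results. The part of the markers and of depth in the division between the series was not tested. With all males in the fit no such division was seen: the series difference lay between -0.61 and 0.37, above 0 for 6 of 10 genes. Of the 10, 0 were called (0.0% of all genes). That depended on KD male E213. Without this mouse the difference was -2.06 for Junb, -1.61 for Arc, -1.57 for Egr2 and -1.26 for Fos, opposite in sign to the females. It was -0.14 for Egr1 and -0.17 for Npas4, and none of these was called. KD and CD males did not separate within either series for any of the 10 genes (7.68% of all genes in series 1 and 11.4% in series 2). In series 2 this too depended on E213. The other KD males, E256 and E254, lay below both CD males, E251 and E264, for every gene but Npas4. Fos was 7.24 and 7.59 CPM in E256 and E254, against 22.7 and 18.5 CPM in E251 and E264. The share of all genes that separate without E213 was not counted, so this separation cannot be set against it. It rests on 2 mice on each diet and on genes that vary together, so the shared direction is not a set of separate results.

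**Figure D2:**
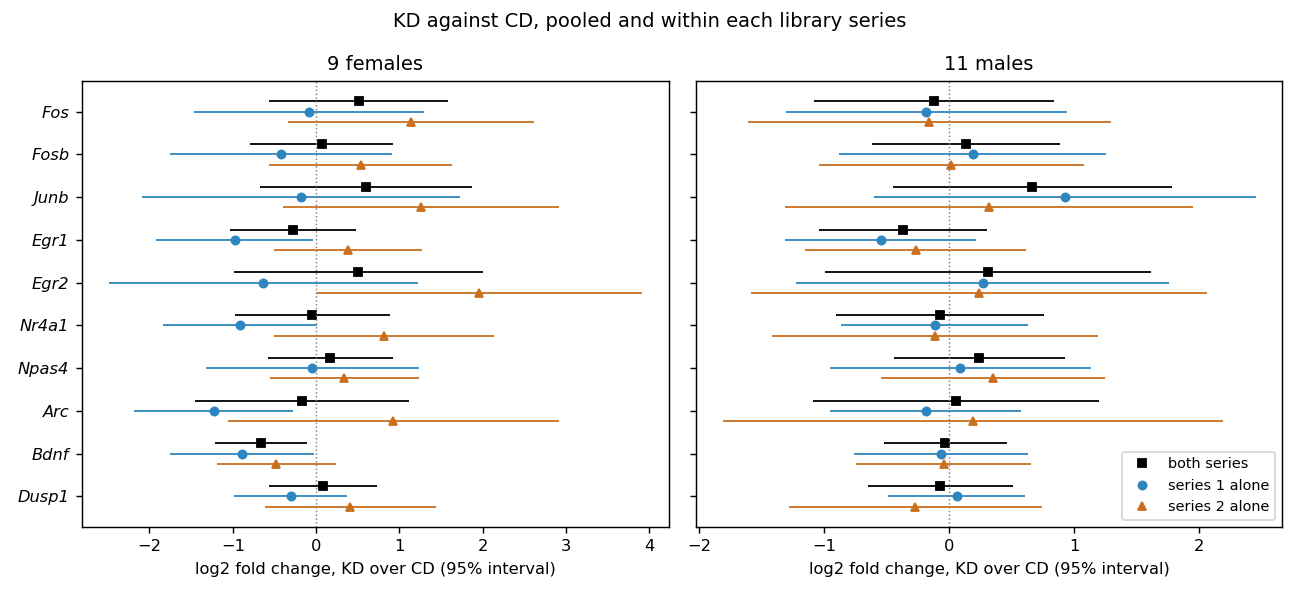
Log2 fold change of KD over CD with its 95% interval for each gene, in all females or males (black squares), in library series 1 alone (blue circles) and in series 2 alone (orange triangles). In females the blue circles lie at or left of 0 for 10 of 10 genes and the orange triangles right of it for 9. In males the circles run from -0.55 to 0.93, the triangles from -0.27 to 0.35 and the squares from -0.37 to 0.67. The male values include E213.

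Bdnf was low in every library with a high level of striatal markers. The 5 libraries with over 1000 summed CPM of striatal markers had 28.6 to 41.9 CPM of Bdnf and the other 15 had 46.1 to 99.2 CPM, without overlap. Among all genes tested, 0.856% were lower in those 5 than in the other 15 in this way. The other 9 members overlapped. E207 had the lowest Bdnf of the 20 and was above the median for the other 9 genes. With the summed striatal markers as a covariate, the Bdnf difference between KD and CD females was 0.02 ± 0.207, and with the cortical neuron markers it was -0.45 ± 0.311. E228, E249, E227 and E59 each stood apart from the rest of their group in striatal or choroid plexus markers or in Ddx3y, E227 by its low striatal sum of 343.5 CPM, and they were chosen after the data had been examined. Without these 4 libraries, Bdnf was called in females at -1.02 ± 0.237 (adjusted p = 0.00931, edgeR) and in the comparison of the diet between sexes at -1.12 ± 0.298 (adjusted p = 0.0438). Without E249 alone it was called at -0.78 (adjusted p = 0.0899). The 3 KD females left in the smaller fit, E61, E68 and E207, have 2231 to 2899 CPM of striatal markers, and the 3 CD females left, E62, E67 and E265, have 237 to 299.6 CPM. Diet and striatal content therefore cannot be told apart in that fit. In the fit of all libraries the same 3 KD females have over 1000 CPM of striatal markers, and of the CD females only E249 does. The covariate values above therefore do not separate diet from striatal content either.

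**Figure D3:**
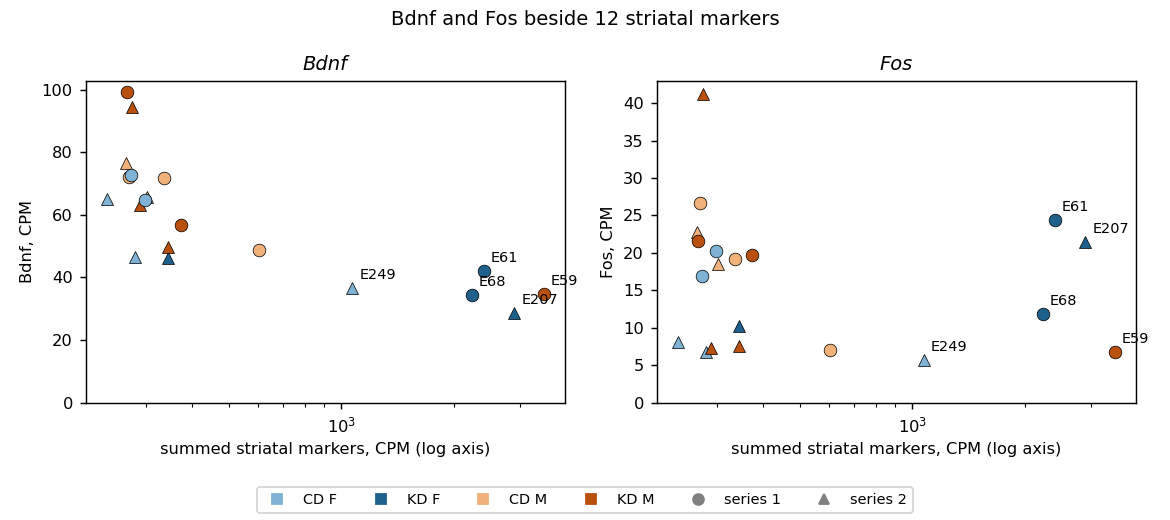
Bdnf (left) and Fos (right) in CPM against the summed CPM of 12 striatal markers on a log axis, with 1 symbol per mouse colored by diet and sex, and the 5 libraries over 1000 CPM named. Bdnf is at most 41.9 CPM in those 5 and at least 46.1 CPM in the rest, whereas Fos spans 5.65 to 24.4 CPM in the 5.

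Between females and males 0 of 10 genes were called (0.134% of all genes, or 21, which became 813 without E227 and 204 without E59, each time with Bdnf among them). By the fitted values 10 of 10 genes were lower in females over both diets, from -0.07 for Npas4 to -0.85 for Egr2, with a median of -0.54, where 49.2% of all genes were lower. As the genes vary together across mice, this shared direction is not 10 separate results. An unadjusted p of 0.05 was passed by 3, compared with 4.96% of all genes in that direction. They were Bdnf at -0.53 ± 0.177, with an unadjusted p of 0.00742 and an adjusted p of 0.227 in the edgeR quasi-likelihood test, Fosb at -0.63 ± 0.274 (0.0335 unadjusted) and Egr1 at -0.55 ± 0.242 (0.0337 unadjusted). In series 2 alone 10 of 10 were lower in females, with a median of -0.77. In series 1 alone 7 of 10 were, with a median of -0.21, and Fos, Nr4a1 and Npas4 were slightly higher. The values of both series together depended in part on KD male E213. Without this mouse Arc moved from -0.61 to -0.15, Fos from -0.38 to -0.10 and Egr2 from -0.85 to -0.52. Npas4 moved from -0.07 to 0.05, while Egr1 was still at -0.43 and Fosb at -0.50. Bdnf was called without KD male E59 (-0.60, adjusted p = 0.0944) or without KD female E227 (-0.59, adjusted p = 0.068), and was -0.21 ± 0.125 with the striatal covariate. With that covariate 7 of 10 genes were lower in females, with a median of -0.25, and with the cortical neuron markers 7 of 10, with a median of -0.18. Striatal markers were higher in females than males for 12 of 12 genes in the same comparison, with a median log2 difference of 1.08, and cortical neuron markers were lower for 10 of 11.

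Between the library series, 1 of 10 genes was called, and 7.24% of all genes were. Dusp1 was higher in series 2, at 12.4 ± 6.08 CPM against 8.47 ± 1.80 CPM in series 1 (n = 10 each), with a log2 fold change of 0.59 ± 0.206 (adjusted p = 0.0445, edgeR). The 10 libraries of series 1 ran from 5.47 to 11.1 CPM and those of series 2 from 4.83 to 23.9 CPM, so the groups overlap and the 2 highest, E213 and E264, are both of series 2. The value lay close to the 1.5-fold limit, and the call was lost without any 1 of 8 mice (E53, E58, E59, E66, E68, E207, E213 or E264), down to 0.44 without E213. The other 9 genes lay between -0.23 and 0.36.

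**Figure D4:**
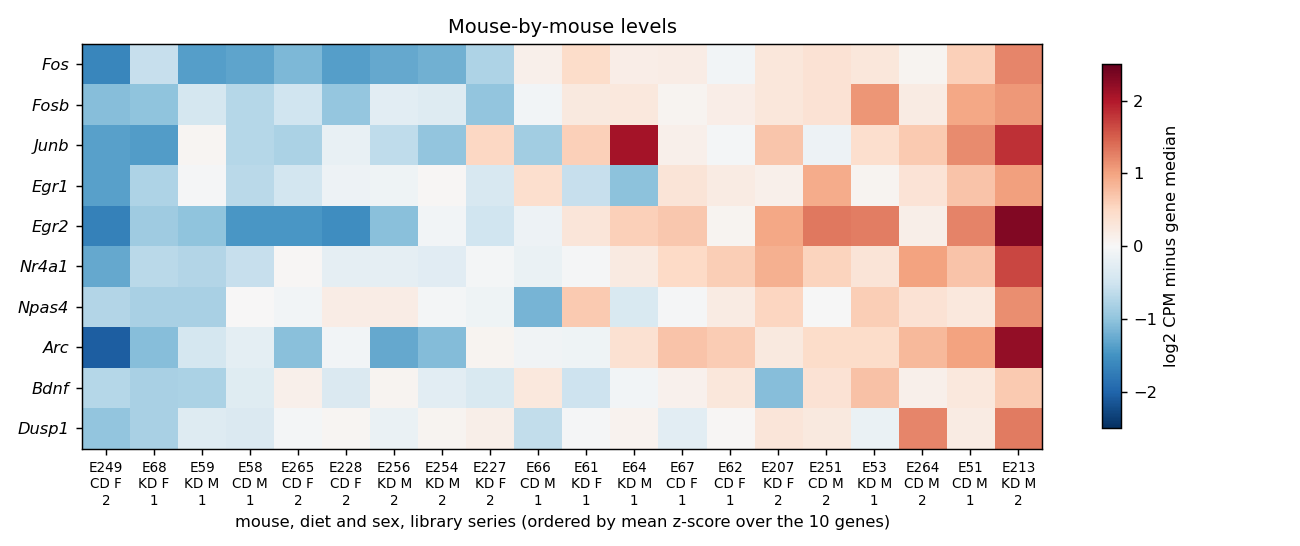
Log2 CPM of each gene minus its median over the 20 mice, with mice ordered by their mean z-score over the 10 genes, and diet, sex and library series under each name. Columns are mostly of 1 color, with E249 at the low end and E213 at the high end, and both ends mix diets.

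Mice of the same group differed widely, and the differences ran through the whole set. KD male E213 was highest of 20 for 7 of the 10 genes and among the top 3 for all 10. CD female E249 was lowest for 7. CD males E51 and E264 and KD male E213 were above the median for 10 of 10 genes, and E249 and KD female E68 for 0. After group and series means were removed, the residual SD on the log2 scale was 1.17 for Egr2, 1.02 for Arc, 1.02 for Junb and 0.87 for Fos, compared with a median of 0.29 over all genes. The residual SD of Egr2 was larger than that of 98.9% of genes tested and that of Bdnf, the smallest of the set at 0.44, larger than that of 72.8%. All 45 pairs among the 10 genes had a positive correlation of these residuals, from 0.36 for Junb and Egr1 to 0.96 for Fos and Egr2, with a median of 0.71. These coefficients are across the same 20 libraries, and share each library's depth and tissue content.

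Across the 20 mice, log2 CPM of Fos was related to that of each of the other 9 genes, tested as 1 family of 9 with Benjamini-Hochberg adjustment. The closest was Egr2, with Pearson's r = 0.92 (permutation p = 1e-05, the smallest that 100000 resamples allow, adjusted p = 2.25e-05) and Spearman's rho = 0.92. Fosb had r = 0.85 (rho 0.86), Arc 0.82 (rho 0.74) and Nr4a1 0.82 (rho 0.79), each with the same adjusted p for r in the permutation test. Junb had r = 0.70 (rho 0.66, adjusted permutation p for r = 0.0011) and Egr1 r = 0.60 (rho 0.59, adjusted permutation p = 0.00868). Dusp1 had r = 0.54 (rho 0.53, adjusted permutation p = 0.0163), Bdnf r = 0.50 (rho 0.51) and Npas4 r = 0.50 (rho 0.57), the last pair with an adjusted permutation p of 0.0268 for r. Without E249 and E59, the libraries farthest from the median of Fos, r was 0.91 for Egr2 and 0.84 for Fosb. It fell to 0.43 for Dusp1, 0.37 for Bdnf and 0.36 for Npas4 (permutation p = 0.0761, 0.125 and 0.149), so r stayed above 0 for these 3, but their passing of the test rests on those 2 libraries. Within series 1 r ran from 0.34 for Egr1 to 0.90 for Egr2, and within series 2 from 0.43 for Bdnf to 0.95 for Egr2. For Bdnf it was 0.02 in females and 0.81 in males.

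**Figure D5:**
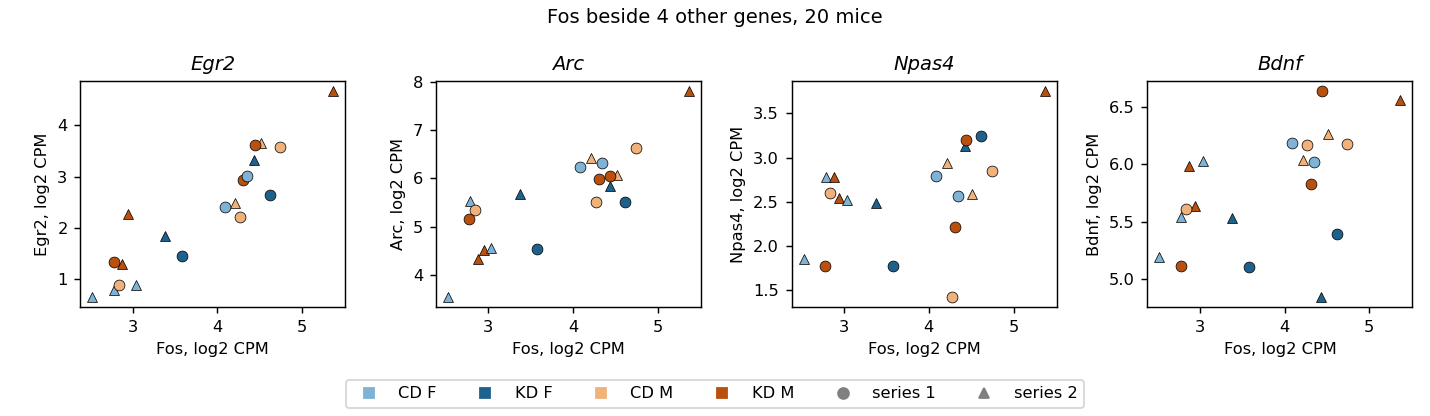
Log2 CPM of Egr2, Arc, Npas4 and Bdnf against that of Fos, with 1 symbol per mouse colored by diet and sex, circles for library series 1 and triangles for series 2. Egr2 rises with Fos through all 20 mice (r = 0.92). Bdnf is low in KD females E61, E68 and E207, whose Fos is 24.4, 11.9 and 21.5 CPM. It is also low in CD female E249 and KD male E59, whose Fos is 5.65 and 6.74 CPM.

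Genes outside the set whose residuals most resembled the mean z-score of the 10 were sought among the other 15650 tested. The closest was Midn, the gene of the nuclear protein midnolin, with r = 0.92 over 20 libraries, the only one at or above 0.9 in absolute value. Then came the repressor gene Nfil3 (0.88), Papd7 (0.87), Nr4a3, a relative of Nr4a1, (0.86), the orphan receptor gene Gpr3 (0.85), the MAP kinase phosphatase gene Dusp4 (0.84), Mon2 (0.84), the zinc-finger factor gene Egr4 (0.84), the clock gene Per2 (0.84) and the co-chaperone gene Dnajb5 (0.83). Of these 10, 5 are in the lists of activity-induced genes below. Midn ran from 7.78 to 27.2 CPM, Nr4a3 from 2.29 to 19.4 CPM and Per2 from 16.6 to 51.7 CPM.

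Other genes of the pathway were taken from 4 lists. Of 28 further activity-induced nuclear regulators 27 were tested, all but Fosl1, and 17 of them had r of at least 0.5 with the set, with a median of 0.58. Among 19 feedback regulators it was 12, with a median of 0.57, and among 19 secreted and synaptic effectors 10, with a median of 0.50. Among 32 receptors, kinases and factors upstream of induction only 8 reached 0.5, with a median of 0.26 and 0.72 for Srf. Over all genes 17.5% reached 0.5, with a median of 0.10.

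No gene of these lists passed the test on the diet in either sex. In females 0 of 27 nuclear regulators, 0 of 19 feedback regulators, 0 of 19 effectors and 0 of 32 upstream genes were called, with median log2 fold changes of -0.04, -0.07, -0.25 and -0.01. The smallest p in each direction belonged to Btg2, an antiproliferative gene (0.61, adjusted p = 0.454), and Ier5 (-0.67, adjusted p = 0.425) among the nuclear regulators. Among feedback regulators they belonged to Rgs2, which curbs G-protein signaling (0.56, adjusted p = 0.26), and the ERK phosphatase gene Dusp6 (-0.48, adjusted p = 0.372). In the effectors they were those of the matrix protein gene Cyr61 (1.13, adjusted p = 0.276) and of Nrn1, which encodes neuritin (-0.78, adjusted p = 0.282). Upstream, Ngfr, the low-affinity neurotrophin receptor, had 1.99 (adjusted p = 0.271), with 7.56 ± 4.62 CPM in KD females and 1.54 ± 2.09 CPM in CD females. Mef2c, a calcium-responsive transcription factor of excitatory neurons, had -0.86 (adjusted p = 0.218), with 872 ± 485 CPM in KD females and 1494 ± 411 CPM in CD females. All these values are from the edgeR quasi-likelihood test, and the striatal and cortical marker sums above differ between the same libraries.

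In males 0 genes of the 4 lists were called, and the adjusted p was 1 for each gene named here. The smallest unadjusted p in each direction was that of Jun, a partner of Fos (0.56), and Cebpb (-0.40) among nuclear regulators. For feedback regulators it was that of Plk2 (0.13) and Dusp2 (-0.59), for effectors that of the opioid peptide gene Penk (1.42) and Nrn1 (-0.22), and for upstream genes that of Mapk3, which encodes ERK1 (0.59), and Camkk2 (-0.32). Penk stood at 72.1 ± 132 CPM in KD males and 23.9 ± 16.8 CPM in CD males, so the SD on the KD exceeded the mean. KD male E59 had 3467 CPM of striatal markers. The r of Penk with the set was -0.46, the lowest of the effectors. Between the library series, 1 gene of the 4 lists was called higher and 1 lower in series 2, where 7.24% of all genes were called. Nr4a2, a relative of Nr4a1, was higher at 45.2 ± 25.9 CPM against 28.9 ± 25.4 CPM (log2 fold change 0.89 ± 0.335, adjusted p = 0.0594, edgeR). Vgf, which encodes a secreted neuropeptide precursor, was lower at 31.1 ± 8.05 CPM against 56.6 ± 13.6 CPM (-0.82 ± 0.16, adjusted p = 0.00142, edgeR). The Nr4a2 ranges overlapped widely, from 12.4 to 79.1 CPM in series 2 and from 6.87 to 76.6 CPM in series 1.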

How the data were processed

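Total RNA of frozen cortex from 20 APOE4 mice was sequenced as stranded 50-bp read pairs. The authors aligned reads to mm10 with STAR and deposited whole-number counts of reads per gene, not normalized. The aligner's version, the gene annotation and the strand counted are not given in the sources used here. Groups came from the sample labels (SD in the labels is the CD) and library series from the library numbers. The 10 genes, the lists and the markers were chosen with earlier results of these data known.

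CPM were computed from the deposited counts, with a prior count of 2 on the log2 scale. Genes passing filterByExpr were fitted in R 4.3.3 with edgeR 4.0.16 (robust quasi-likelihood F test, upper-quartile scaling, 4 groups plus library series), with Benjamini-Hochberg adjustment over 15660 genes. A second fit gave each group in each series its own mean. Nothing in the labels says more of replicates than 1 mouse per library. The study states RUVg, without the number of factors, so RUVg with 1 or 2 factors, rewritten for this work with all but the 5000 genes of smallest p as controls, was an alternative. Others were TMM, DESeq2 1.42.0 size factors and Wald test, a likelihood ratio test, no filter or 10 counts in every library, no series term, each sex or series alone, each mouse left out, and a prior count of 0.5 for the relations. After the data had been examined, fits without 4 libraries and with striatal or cortical markers as a covariate were added. The fit was tested on simulated counts.

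Genes named are the 10, list members called in any comparison, the list member of smallest p in each direction in each sex, the 10 genes most like the set, and Apoe, Xist and Ddx3y. The likeness is Pearson's r of log2 CPM residuals, after group and series means were removed, with the mean z-score of the 10. Marker lists not described in the text were those of hippocampus (33.9 to 171 summed CPM), microglia (383 to 743), endothelium (223 to 359), astrocytes (5552 to 7536) and oligodendrocytes (1530 to 4935). Six3, Folr1, Slc4a5 and Iyd were at 0 in some library.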

Additional observations from a re-analysis of the deposited data

Results flagged for a closer look

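Dixon's test was applied to the CPM of the 40 sets of values formed by 10 genes in 4 groups, and 5 were marked. Chance alone would mark about 2 if the values were normally distributed, which CPM need not be. The test was not run on log2 CPM, so the 5 cannot be weighed against the 2. In KD males E213 stood above the other 5 mice for Arc (222.5 CPM, gap over range 0.77), Egr1 (175 CPM, 0.644), Nr4a1 (49.9 CPM, 0.751) and Dusp1 (23.9 CPM, 0.839), with 0.625 as the critical value for 6 mice. These 4 are 1 library and not independent. In KD females E68 stood below the other 3 for Junb (1.12 CPM, 0.85, critical value 0.829 for 4 mice). E213 had 276 CPM of striatal and 1110 CPM of cortical neuron markers, both within the range of the other KD males, and a total of 14740328 counts.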

How the results depend on the processing

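No paired analysis was possible because mice carry animal numbers that no 2 groups share. No setting made any of Fos, Fosb, Junb, Arc, Egr1, Egr2, Nr4a1 or Npas4 a DEG in any comparison. The calls that changed were those of Bdnf and Dusp1, and the cause was not tested. Levels were lowest for Fosb, Junb, Npas4 and Egr2, with medians of 0.864, 1.35, 1.43 and 1.46 CPM per kb, but the SE of the diet effect in females was 0.613 for the abundant Arc and 0.409 for Fosb. With 4 to 6 mice per group the 95% intervals of the diet effect in females span at least 1.11 on the log2 scale.

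The counts below are set against the main fit of this report, and not against the counts that the study gives. Genes called for KD against CD in females, 7 in the main fit, were 12 without a filter, 4 without a series term, 21 with 1 RUVg factor, 267 with 2 RUVg factors, 220 with the likelihood ratio test, 253 with the DESeq2 Wald test, 1 with each sex separately, 865 in series 1 alone, 0 in series 2 alone, 1827 without the 4 libraries, 0 with the striatal covariate and 1 with the cortical covariate. Genes called for KD against CD in males, 0 in the main fit, were 1 with the striatal covariate. Genes called for the difference of the diet effect between sexes, 0 in the main fit, were 1 with the likelihood ratio test, 1 with the DESeq2 Wald test, 14 in series 1 alone and 869 without the 4 libraries. Genes called for the diet over both sexes, 42 in the main fit, were 157 with 1 RUVg factor, 352 with 2 RUVg factors, 370 with the likelihood ratio test, 351 with the DESeq2 Wald test, 886 in series 1 alone, 0 in series 2 alone, 1145 without the 4 libraries, 0 with the striatal covariate and 0 with the cortical covariate. Genes called for females against males, 21 in the main fit, were 4 with 10 counts in every library, 9 with 1 RUVg factor, 11 with 2 RUVg factors, 286 with the likelihood ratio test, 212 with the DESeq2 Wald test, 76 in series 1 alone, 5 in series 2 alone, 757 without the 4 libraries and 6 with the cortical covariate. Genes called for the library series, 1134 in the main fit, were 690 with 10 counts in every library. Of the 10 genes, 0 were called with TMM for the library series, 1 was called without the 4 libraries for KD against CD in females, 1 was called without the 4 libraries for the difference of the diet effect between sexes and 0 were called with the striatal covariate for the library series. Log2 fold changes on the other side of 0, for KD against CD in females, were without a series term Nr4a1 0.02, with 1 RUVg factor Nr4a1 0.01, with 2 RUVg factors Arc 0.08 and Nr4a1 0.17, with each sex separately Nr4a1 0.04, in series 1 alone Fos -0.08, Fosb -0.42, Junb -0.18, Egr2 -0.64, Npas4 -0.05 and Dusp1 -0.31, in series 2 alone Arc 0.93, Egr1 0.38 and Nr4a1 0.81, without the 4 libraries Fosb -0.07 and Dusp1 -0.14, with the striatal covariate Arc 0.81, Egr1 0.04, Nr4a1 0.70 and Bdnf 0.02, with the cortical covariate Arc 0.96, Egr1 0.33 and Nr4a1 0.60. Log2 fold changes on the other side of 0, for KD against CD in males, were with 2 RUVg factors Arc -0.24, with each sex separately Arc -0.02, in series 1 alone Arc -0.19 and Dusp1 0.06, without the 4 libraries Fos 0.03, Nr4a1 0.02 and Bdnf 0.11, with the striatal covariate Nr4a1 0.03 and Bdnf 0.08, with the cortical covariate Nr4a1 0.02 and Bdnf 0.01. Log2 fold changes on the other side of 0, for females against males, were with 2 RUVg factors Npas4 0.18, in series 1 alone Fos 0.11, Nr4a1 0.05 and Npas4 0.20, without the 4 libraries Npas4 0.01, with the striatal covariate Fos 0.04, Nr4a1 0.01 and Npas4 0.14, with the cortical covariate Arc 0.02, Nr4a1 0.09 and Npas4 0.08. Log2 fold changes on the other side of 0, for the diet by series in females, were without the 4 libraries Bdnf -0.41.

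With each mouse left out in turn, genes called ran from 0 to 1046 (without E249) for KD against CD in females, from 0 to 41 (without E227) for the difference of the diet effect between sexes, from 2 to 791 (without E249) for the diet over both sexes, from 8 to 813 (without E227) for females against males and from 0 to 1051 (without E228) for the diet by series in females. Of the 10 genes, 0 to 1 were then called for KD against CD in females, females against males and the library series. For KD against CD in females, the left-out ranges that cross 0 or a call were Arc -0.46 to 0.10, Bdnf -0.79 to -0.55, Dusp1 -0.10 to 0.25, Fosb -0.24 to 0.29, Npas4 -0.13 to 0.37 and Nr4a1 -0.34 to 0.18. For KD against CD in males, the left-out ranges that cross 0 or a call were Arc -0.82 to 0.23, Bdnf -0.21 to 0.11, Dusp1 -0.31 to 0.19, Egr2 -0.40 to 0.67, Fos -0.71 to 0.07, Fosb -0.11 to 0.34 and Nr4a1 -0.50 to 0.07. For females against males, the left-out ranges that cross 0 or a call were Bdnf -0.60 to -0.45 and Npas4 -0.22 to 0.05. For the library series, the left-out ranges that cross 0 or a call were Dusp1 0.44 to 0.68. For the diet by series in females, the left-out ranges that cross 0 or a call were Npas4 -0.16 to 1.26. For the diet by series in males, they were Arc -1.61 to 0.84, Bdnf -0.28 to 0.50, Dusp1 -0.89 to 0.22, Egr1 -0.14 to 0.62 and Egr2 -1.57 to 0.69. The others were Fos -1.26 to 0.40, Fosb -0.75 to 0.33, Junb -2.06 to 0.25, Npas4 -0.17 to 0.79 and Nr4a1 -0.91 to 0.32.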
